A study of Mus musculus with 4 samples.

Results

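This is an account of 32 genes of glycolysis and of the response to low oxygen, out of 27998 genes counted, in immune cells sorted from mouse glioma and from healthy mouse brain. The 32 were listed by symbol, and every one had a row in the count tables. By role they are the glucose transporters Slc2a1 and Slc2a3, the hexokinases Hk1, Hk2 and Hk3, the upper enzymes Gpi1, Pfkl, Pfkm, Pfkp, Aldoa, Aldoc and Tpi1, and the lower enzymes Gapdh, Pgk1, Pgam1, Eno1 and Pkm. Pfkfb3 and Pfkfb4 make and break the sugar bisphosphate that activates phosphofructokinase. Ldha turns pyruvate into lactate, Slc16a3 exports lactate, and Pdk1 keeps pyruvate out of the mitochondrial oxidation route. Hif1a encodes the oxygen-regulated subunit of the hypoxia-inducible factor, and Bnip3, Vegfa, Adm, Ndrg1, Egln3, P4ha1, Ero1l, Ddit4 and Mxi1 are known targets of the hypoxia response.

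Each of the 4 conditions was 1 single-cell library. In 3 of them the glioma-005 cell line, a mouse glioma line, was implanted into the hippocampus of C57BL/6J mice aged 8 to 12 weeks, and intraperitoneal antibodies began on day 7. The IgG group received rat IgG2a, the anti-CTLA-4 group an antibody to the T cell checkpoint receptor CTLA-4, and the depletion group that antibody together with one that removes CD4 cells. Brains were taken on day 35, and each tumor library pooled 3 tumors. The fourth library came from normal C57BL/6 brain, for which no tumor or antibody is named. The mice were perfused. Sorting took T cells as CD45hi CD3+, microglia as CD45int CX3CR1+, other myeloid cells as CD45hi CD11b+ and all remaining CD45hi cells, which were pooled at equal ratios for each group, so cell numbers per lineage were set in part by the sort and are not compared here.

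Glycolysis splits glucose into pyruvate in the cytosol and yields energy without oxygen. When oxygen is plentiful, prolyl hydroxylases such as Egln3 mark HIF-1α for destruction. When oxygen is short, or when immune cells are activated, the protein accumulates and binds short motifs near genes for glucose uptake, glycolysis, lactate export and vessel growth. Hif1a itself is regulated largely at the level of the protein, so its transcript is not a measure of the factor's activity. Macrophages, neutrophils and T cells are known to shift toward glycolysis upon activation, and hypoxic zones are a feature of malignant glioma.

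The promoters below are shown because they carry the short sequence that the hypoxia-inducible factor is known to bind. Each is the 250 bases before the annotated transcription start, from RefSeq on GRCm38.p6 (the assembly that mm10 corresponds to), written 5′ to 3′ on the gene's own strand. They lie at chr12:73907617-73907866 on the plus strand for Hif1a, chr12:54203875-54204124 on the minus strand for Egln3, chrX:106186850-106187099 on the plus strand for Pgk1, chr6:82774455-82774704 on the minus strand for Hk2 and chr10:59323046-59323295 on the plus strand for P4ha1. None of these windows overlaps an annotated exon. Capitals mark ACGTG or GCGTG read on either strand, which appear as CACGT or CACGC where the match is on the other strand.
Hif1a: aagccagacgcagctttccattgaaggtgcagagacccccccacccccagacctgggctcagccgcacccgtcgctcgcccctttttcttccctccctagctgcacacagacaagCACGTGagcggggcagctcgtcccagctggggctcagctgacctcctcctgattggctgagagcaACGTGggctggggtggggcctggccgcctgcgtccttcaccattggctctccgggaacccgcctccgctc
Egln3: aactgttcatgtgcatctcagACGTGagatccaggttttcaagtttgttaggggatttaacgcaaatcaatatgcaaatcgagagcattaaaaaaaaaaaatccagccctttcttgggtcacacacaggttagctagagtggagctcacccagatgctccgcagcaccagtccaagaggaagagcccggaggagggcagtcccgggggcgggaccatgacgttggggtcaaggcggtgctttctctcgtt
Pgk1: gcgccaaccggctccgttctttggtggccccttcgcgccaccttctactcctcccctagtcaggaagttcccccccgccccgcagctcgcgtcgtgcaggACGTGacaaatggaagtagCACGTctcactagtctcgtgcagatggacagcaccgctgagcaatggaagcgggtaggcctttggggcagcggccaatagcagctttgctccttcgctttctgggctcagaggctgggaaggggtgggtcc
Hk2: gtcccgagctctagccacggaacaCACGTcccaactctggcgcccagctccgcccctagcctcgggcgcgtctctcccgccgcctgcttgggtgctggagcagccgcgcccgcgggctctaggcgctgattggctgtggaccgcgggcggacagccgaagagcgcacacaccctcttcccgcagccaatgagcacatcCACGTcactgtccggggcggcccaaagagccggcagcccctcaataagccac
P4ha1: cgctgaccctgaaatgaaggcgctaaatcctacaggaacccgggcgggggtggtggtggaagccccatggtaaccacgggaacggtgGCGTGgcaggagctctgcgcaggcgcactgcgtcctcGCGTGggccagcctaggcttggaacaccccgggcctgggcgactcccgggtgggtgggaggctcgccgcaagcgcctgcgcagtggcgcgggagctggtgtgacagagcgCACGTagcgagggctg

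The Hif1a and P4ha1 windows held 3 matches each, those of Pgk1 and Hk2 held 2 each, and that of Egln3 held 1. A palindrome gives Hif1a a pair of overlapping matches, one on each strand, so it shows 2 marked stretches. In P4ha1 the nearest match began 16 bases before the start, and in Egln3 the only one began 229 bases before it. Of the 32 genes, 30 matched a RefSeq promoter (Slc2a3 and Ndrg1 were not matched), and 28 of these 30 (93.3%) held at least 1 match in the 250 bases before any of their annotated starts, against 41.5% of 27025 genes in the promoter table and 62.4% of the 7899 matched genes that were tested between lineages below. Counted by start, 80.4% of the 46 windows of these genes held a match, against 38.6% of all 32851 windows. Gpi1 and Tpi1 held none. A match is a run of letters, not a measured binding site. Of the matched genes that differed between monocytes and macrophages and microglia in the comparison below, 20 of 22 called higher and 3 of 3 called lower held one.

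The libraries held between 1420 and 3916 barcodes and between 7950206 and 21471565 UMIs (unique molecular identifiers, each a counted transcript molecule), with median depths of 4455 to 5862 UMIs in the cells kept. Cells were assigned to lineages by distinct marker genes with a UMI, with at least 3 needed and a lead of at least 2 over every other lineage. This assigned 94.8% of kept cells in healthy brain and 86.0%, 92.8% and 88.3% in the IgG, anti-CTLA-4 and depletion libraries, and the rest were left out. Dendritic cells were too few to describe, and healthy brain held only 4 NK cells. All 10 listed microglia markers were present in microglia of each library, but cells were assigned by these markers, so this is no check of the assignment. Glioma progenitor markers, which were not used to assign cells, summed to 0 in microglia. In monocytes and macrophages they summed to at most 1.23 CPM (UMIs per 1000000 UMIs of a lineage in a library). The healthy library held 2.14 CPM of Xist and 67.2 CPM of the Y-linked Ddx3y, whereas the tumor libraries held 716 to 964 CPM of Xist and at most 1.91 CPM of Ddx3y, so the comparison with healthy brain is also one between male and female RNA. Libraries shared 9 barcodes in all, 6 of them between the anti-CTLA-4 and depletion libraries.

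Values below are CPM of UMIs summed over the cells of a lineage in a library. Because only the 3′ end is counted, a CPM is used to compare 1 gene between cells and not to rank genes. The 4 values of a gene are always given in the order healthy brain, IgG, anti-CTLA-4, depletion, and 3 values in the order IgG, anti-CTLA-4, depletion. Intervals are exact and cover counting error only. With 1 library per condition there is no test between conditions. Such a difference was called past the size rule where the CPM ratio reached 1.5 in either direction, its 95% interval left out 1, and the libraries held 30 or more UMIs of the gene between them.

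Across the tumor, monocytes and macrophages carried the most RNA of these genes. The 32 genes took 0.724, 0.862 and 0.653% of their UMIs, against 0.395, 0.316 and 0.413% in microglia, 0.696, 0.738 and 0.523% in neutrophils, 0.465, 0.459 and 0.379% in T cells, 0.24, 0.241 and 0.211% in NK cells and 0.237, 0.253 and 0.212% in B cells. NK and B cells were thus lowest in each tumor library. In healthy brain the share was 0.292% in microglia, 0.394% in monocytes and macrophages, 0.505% in neutrophils, 0.237% in T cells and 0.221% in B cells. Within the monocyte and macrophage lineage, cells with at least 2 UMIs of Arg1, an arginine-degrading enzyme of tumor macrophages, held 0.989, 1.1 and 0.772%. Cells with at least 10 UMIs of complement C1q genes and no Arg1 held 0.649, 0.83 and 0.601%, and Ly6c2 monocytes with neither held 0.400, 0.598, 0.653 and 0.59%, the first of these 4 values being healthy brain.

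**Figure D1:**
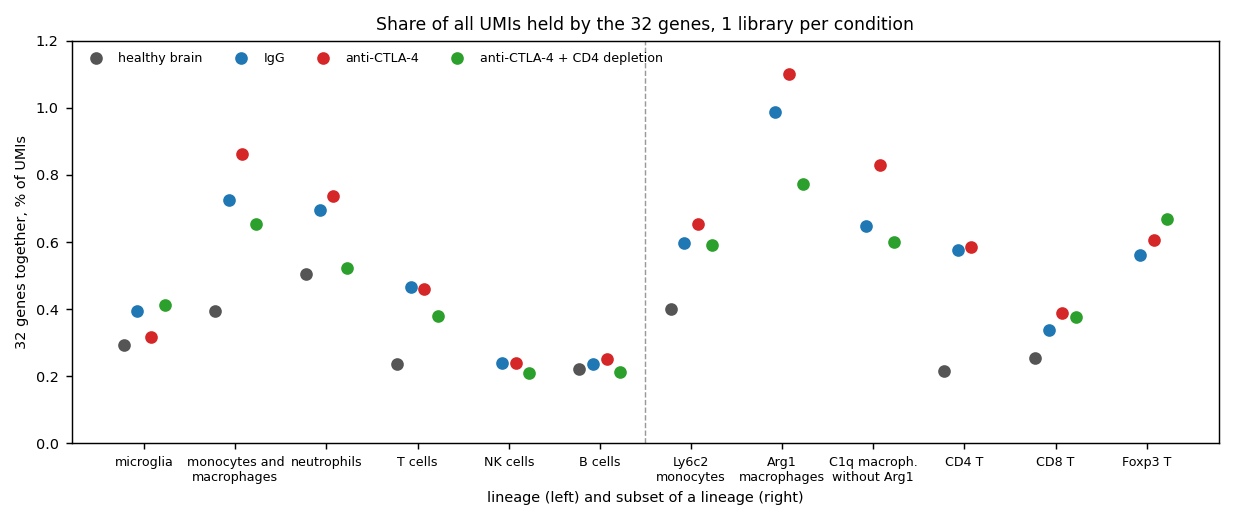
Percent of the UMIs of each lineage or subset (x axis) that fell on the 32 glycolysis and hypoxia genes (y axis, from 0), with 1 point per library. Tumor monocytes and macrophages sit between 0.653% and 0.862%, above tumor microglia, T, NK and B cells in each library, and the Arg1 subset reaches 1.10% with anti-CTLA-4.

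By the mean CPM of the 3 tumor libraries, 16 of the 32 genes were highest in monocytes and macrophages, 8 in neutrophils, 4 in microglia, 3 in T cells and 1 in B cells. The same lineage led in all 3 tumor libraries for 9 of the 16 and for 5 of the 8. The neutrophil genes were Slc2a1, Slc2a3, Aldoa, Pfkfb4, Ndrg1, Egln3, Slc16a3 and Mxi1. The microglial genes were Hk2, Pfkfb3, P4ha1 and Pdk1, of which all but Pfkfb3 led in each library. Hk1, Pfkm and Ddit4 were highest in T cells. Adm, the vasodilator peptide adrenomedullin, was led by B cells but rested on 13 UMIs in the whole of the tumor lineages.

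**Figure D2:**
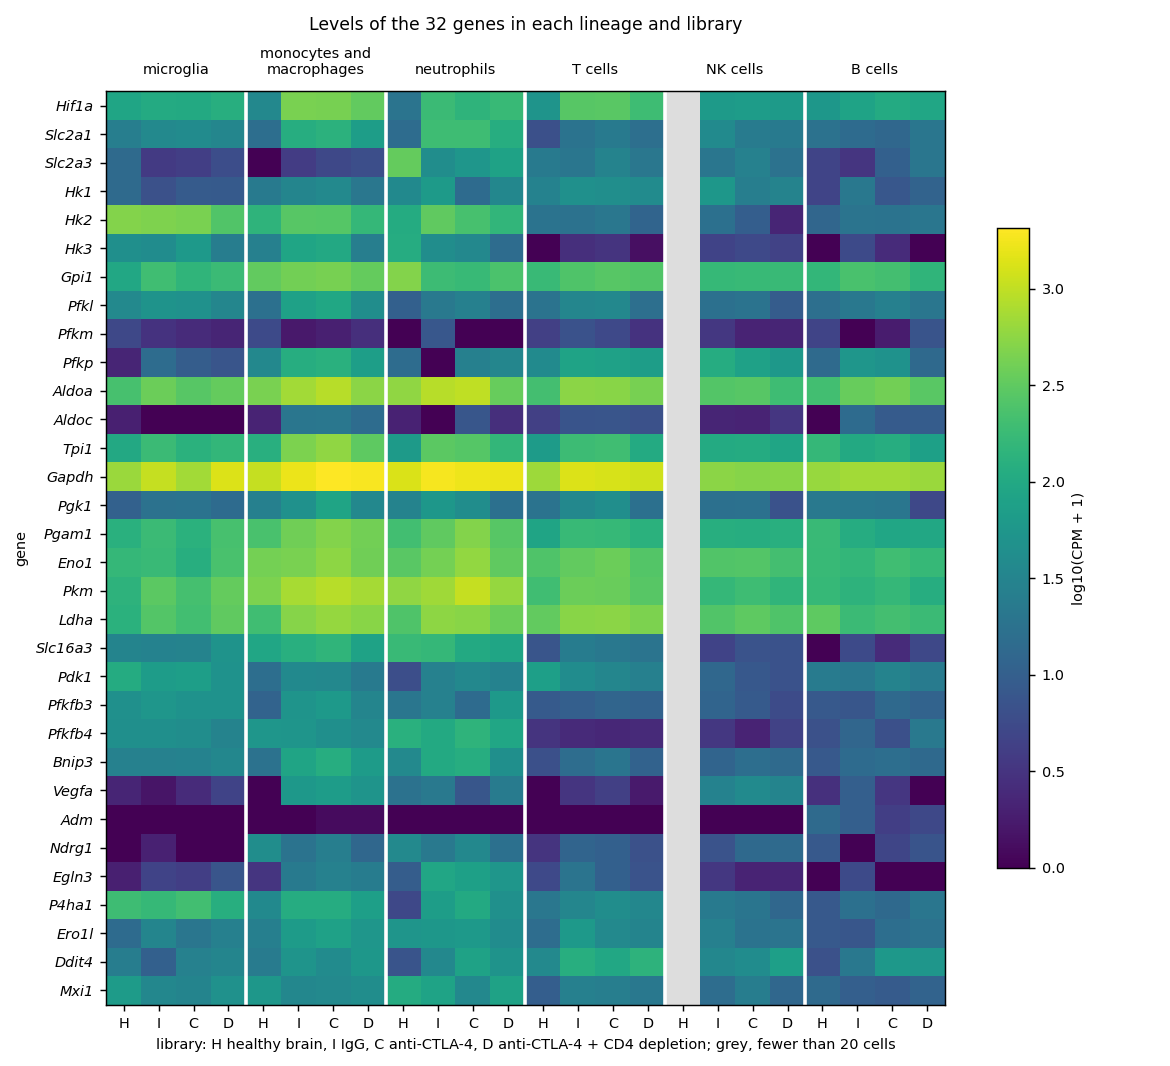
Level of each of the 32 genes (rows, grouped by role) in 6 lineages and 4 libraries (columns, H healthy brain, I IgG, C anti-CTLA-4, D depletion), as log10 of CPM plus 1. Grey marks a lineage with fewer than 20 cells in that library, here NK cells of healthy brain. Brighter colors are higher values. The Hif1a row is bright in tumor monocytes and macrophages and darker in those of healthy brain, and within each library the Hk2 row is brightest in microglia.

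Hif1a, the oxygen-regulated subunit, had a higher value in every tumor library than in healthy brain in the 5 lineages compared, and by a wide margin in monocytes and macrophages, neutrophils and T cells. In monocytes and macrophages it stood at 34, 442, 436 and 329 CPM, low in healthy brain and high in each tumor library. In T cells it stood at 51, 286, 287 and 194 CPM, and in neutrophils at 18, 179, 142 and 171 CPM, again with all 3 tumor libraries above healthy brain. Microglia, in contrast, held 88.8, 105, 102 and 120.2 CPM, a narrow range in which healthy brain lay lowest. NK cells of the tumor held 62.3, 66.4 and 63.8 CPM and B cells 56.6, 83.4, 106 and 89.7 CPM. The order in the tumor was monocytes and macrophages, T cells, neutrophils, microglia, B cells and NK cells; microglia and B cells overlapped over libraries. After every cell had been thinned to 1500 UMIs, a Hif1a UMI was found in 2.22, 41.8, 44.2 and 35.3% of monocytes and macrophages, against 23.5, 79.5, 86 and 78.3% unthinned.

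The transporter Slc2a1, which carries glucose across the plasma membrane, was highest in neutrophils at 13.8, 193, 189.8 and 117 CPM and next in monocytes and macrophages at 14.7, 114, 134 and 68.3 CPM. Microglia held 25.6, 34.9, 38.4 and 32.5 CPM and T cells 5.42, 17.3, 22.3 and 15.4 CPM. Tumor neutrophils and tumor monocytes and macrophages overlapped over libraries, and both lay above tumor microglia and T cells. NK cells held 37.1, 22.7 and 21.3 CPM, which overlapped T cells, and B cells held 17, 13.5, 11.7 and 18.8 CPM.

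Hexokinase traps glucose in the cell as its phosphate. Hk2 was a microglial gene here: microglia held 507, 473, 444 and 258 CPM, monocytes and macrophages 143, 285, 274 and 162 CPM and neutrophils 107, 317, 224 and 150.3 CPM. T cells held only 17.3, 16.5, 19.6 and 10.7 CPM, and NK cells 15.6, 8.86 and 1.18 CPM. Within each tumor library microglia lay above monocytes and macrophages, although the value of microglia with depletion fell below that of monocytes and macrophages with IgG or anti-CTLA-4. Hk1 had the opposite distribution, with 28.2, 44.4, 42.5 and 38.3 CPM in T cells and 12.9, 5.73, 7.83 and 7.59 CPM in microglia.

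Aldoa, the aldolase that splits the hexose bisphosphate, stood at 581, 896, 989.6 and 347 CPM in neutrophils and 444, 705, 895 and 549 CPM in monocytes and macrophages. T cells held 209, 541, 526 and 425 CPM and microglia 223, 375, 281 and 344 CPM. Gapdh, which oxidizes the triose phosphate, stood at 1045, 1639, 2061 and 1939 CPM in monocytes and macrophages, 1323, 1882, 1708 and 1656 CPM in neutrophils, 665, 1363, 1283 and 1171 CPM in T cells and 653, 1064, 706 and 1395 CPM in microglia. NK cells held a narrow 551, 517 and 529.7 CPM and B cells 626, 715, 719.9 and 661 CPM. Every tumor library lay above healthy brain for Gapdh in microglia, monocytes and macrophages, neutrophils, T cells and B cells. Near-identical copies took few reads: 6 UMIs were counted for Gm3839 against 68337 for Gapdh, and 34 for Pgk1-rs7 against 1522 for Pgk1.

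Ldha stood at 200.4, 511, 614 and 528 CPM in monocytes and macrophages and 333, 533, 544 and 463 CPM in T cells. Neutrophils held 253, 565, 535 and 366 CPM and microglia 132, 265, 201 and 319.6 CPM, so microglia were lowest of these lineages in every library. Pfkfb3 did not separate the myeloid lineages: microglia held 44.7, 53.7, 47.8 and 48 CPM, monocytes and macrophages 10.2, 51.7, 62 and 31.6 CPM and neutrophils 19.1, 27.6, 13.6 and 59.2 CPM, with overlapping tumor values. Its paralog Pfkfb4 was at 125, 103, 142 and 91.1 CPM in neutrophils, on 118, 15, 21 and 100 UMIs, above its 54.4, 52.8, 43.8 and 34.8 CPM in monocytes and macrophages and 44.2, 43.3, 41.5 and 29.7 CPM in microglia.

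P4ha1, the catalytic subunit of collagen prolyl hydroxylase, had the most UMIs of the hypoxia targets and was highest in microglia at 192, 165, 204 and 119 CPM, healthy microglia included. Monocytes and macrophages held 36.2, 111, 110.4 and 72.5 CPM, neutrophils 4.23, 68.9, 102 and 44.6 CPM and T cells 19.5, 31.9, 40.6 and 33.1 CPM. Vegfa, the vascular endothelial growth factor, behaved otherwise: it stood at 0, 57, 67.2 and 51.5 CPM in monocytes and macrophages, 28.8, 37.1 and 30.7 CPM in tumor NK cells and 1.19, 0.521, 1.57 and 3.64 CPM in microglia. At 1500 UMIs per cell, 0, 6.75, 7.18 and 6.55% of monocytes and macrophages, 6.12, 5.6 and 5.29% of tumor NK cells and 0, 0.262, 0.182 and 0.0903% of T cells held a Vegfa UMI. The unthinned shares were 0, 21.1, 29.9 and 19.7%, 14.5, 14.1 and 7.79% and 0, 1.55, 1.63 and 0.352%. NK cells lay above T cells in each tumor library, thinned or not. NK cells were the shallower lineage, with 4704, 4906 and 3221 UMIs in the median cell against 5570.0, 5562 and 4183 for T cells. The level of stray RNA was not measured, and its part in these shares was not tested. Cells under 1500 UMIs were left out of the thinned shares: 12, 11, 3 and 6 monocytes and macrophages, 5, 2 and 17 NK cells and 0, 6, 1 and 28 T cells.

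Lineages were compared within the tumor by edgeR's quasi-likelihood test on the summed counts, with the library as a block and Benjamini-Hochberg adjustment over all genes tested. A gene was called at an adjusted p below 0.05. The 3 libraries that serve as replicates differ in treatment, and each pooled its mice before sequencing. A p thus measures only spread over these libraries. The comparisons of monocytes and macrophages with microglia, neutrophils with monocytes and macrophages, and T with B cells came from a joint fit. That fit held 18 sums of 6 lineages, with 10 residual degrees of freedom. Their p therefore rests on spread pooled over the 6 lineages, not on that of the named pair alone. The Arg1 and cycling comparisons each had 6 sums of 2 groups, with 2 residual degrees of freedom.

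Monocytes and macrophages exceeded microglia for most of the set. Of 30 genes tested (Pfkm and Adm were too low), 23 were called higher and 3 lower, where 26.7% of all genes were called higher and 26% lower. The median log2 fold change of the 30 was 1.52, against 0.01 over all genes. Genes of every role except the PFKFB pair were among the 23: the transporter Slc2a1, Hk1 and Hk3, each upper and lower glycolytic enzyme that was tested, Ldha and Slc16a3, Hif1a, and the hypoxia targets Bnip3, Vegfa, Ndrg1, Egln3, Ero1l and Ddit4. The 4 genes not called were Pfkfb3, Mxi1, Slc2a3 and Pfkfb4.

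Aldoc, the aldolase isoform best known from brain, was at 19.1, 19.4 and 13.8 CPM in tumor monocytes and macrophages and had 0 UMIs in microglia of all 3 tumor libraries. Against a floor of 3 counts per library it was at least 12.2-, 8.27- and 15.2-fold higher (adjusted p = 1.18e-09). Ndrg1, a stress-responsive cytosolic protein, was at 17.3, 25.3 and 11.8 CPM, with 2 UMIs in IgG microglia and none in the others, where the floor gives at least 10.8- and 12.9-fold (adjusted p = 2.91e-08). These 2 genes were thus nearly absent from tumor microglia at this depth. Vegfa was at 57, 67.2 and 51.5 CPM against 0.521, 1.57 and 3.64 CPM, a log2 fold change of 4.85 ± 0.38 (SE, adjusted p = 3.96e-10). Pfkp, the platelet-type phosphofructokinase, was at 114, 127 and 70.3 CPM against 14.1, 8.61 and 6.37 CPM, a log2 fold change of 3.65 ± 0.30 (SE, adjusted p = 1.33e-09). For all 4 genes the values of the lineages did not overlap over libraries. Hif1a differed by 2.11 ± 0.17 (SE, adjusted p = 7.75e-10) and Egln3 by 2.56 ± 0.36 (SE, adjusted p = 2.95e-06) on the log2 scale.

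Microglia exceeded monocytes and macrophages for Pdk1, P4ha1 and Hk2. Pdk1 was at 67.2, 71.3 and 47.3 CPM in microglia and 36.5, 34.4 and 21.8 CPM in monocytes and macrophages, a log2 fold change of -0.77 ± 0.16 (SE, adjusted p = 0.000353). For P4ha1 it was -0.48 ± 0.15 (SE, adjusted p = 0.0119) and for Hk2 -0.45 ± 0.17 (SE, adjusted p = 0.0273). Only Pdk1 of the 3 was still called without the IgG library, and likewise without the anti-CTLA-4 library. Monocyte-list RNA within the microglia was 334, 215 and 846 CPM, against 11903, 11995 and 11662 CPM in monocytes and macrophages themselves.

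Among 55 further genes of the pathway, 37 were tested, 18 were called higher in monocytes and macrophages and 3 lower. The largest were the chemokine receptor Cxcr4 at 4.27 ± 0.25 (SE, adjusted p = 3.69e-12), Nos2, which makes nitric oxide, at 4.02 ± 0.88 (SE, adjusted p = 0.000664), and the hypoxia-responsive repressor Bhlhe40 at 3.21 ± 0.26 (SE, adjusted p = 8.45e-10), all on the log2 scale. Nos2 was at 3.54, 29.5 and 1.92 CPM in monocytes and macrophages and 0, 0 and 0.911 CPM in microglia. Its fold change thus depends on few counts in microglia and is uneven over libraries. Those lower were Ldhb, the lactate dehydrogenase subunit that favors pyruvate, at -2.85 ± 0.26 (SE, adjusted p = 5.83e-09), the collagen lysyl hydroxylase Plod1 at -1.96 ± 0.17 (SE, adjusted p = 1.99e-09) and Tigar, which restrains glycolysis, at -1.0 ± 0.32 (SE, adjusted p = 0.0128). The lactate dehydrogenase pair therefore differed in opposite directions, with Ldha at 1.3 ± 0.17 (SE, adjusted p = 1.77e-06).

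**Figure D3:**
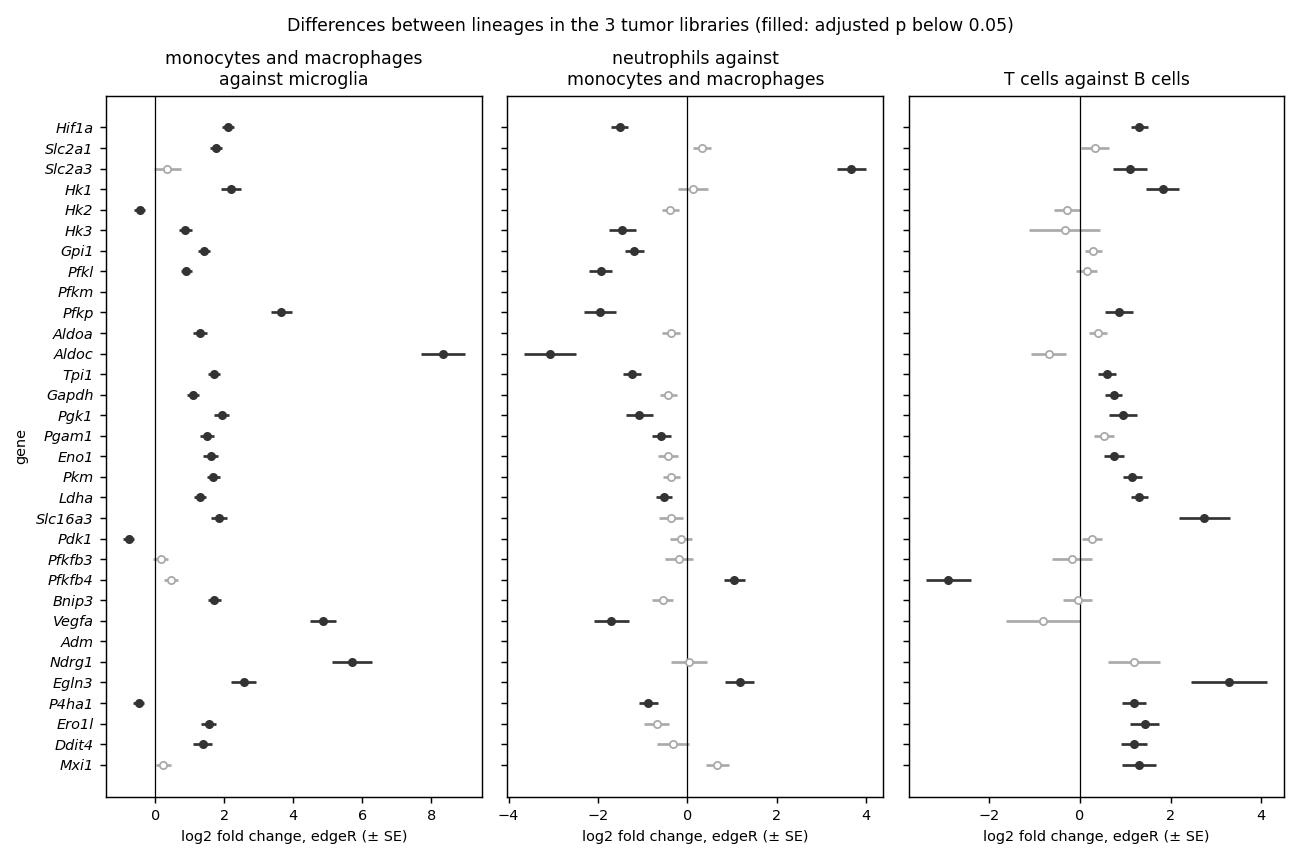
Log2 fold change with its standard error (x axis) of each gene tested (y axis) in the tumor, for monocytes and macrophages against microglia, neutrophils against monocytes and macrophages, and T against B cells. Filled points were called at an adjusted p below 0.05 by edgeR over 3 libraries, and Pfkm and Adm were not tested. In the first panel 23 filled points lie to the right of 0, and Pdk1, P4ha1 and Hk2 lie to the left.

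Neutrophils differed from monocytes and macrophages in both directions. Of 30 genes, 3 were called higher and 12 lower, where 13.7% of all genes were called higher and 18.8% lower, and the median log2 fold change was -0.43 against -0.11 over all genes. Slc2a3, the high-affinity glucose transporter, was at 41.4, 54.2 and 81.1 CPM in neutrophils and 2.83, 4.18 and 5.25 CPM in monocytes and macrophages, a log2 fold change of 3.67 ± 0.33 (SE, adjusted p = 1.35e-08). Egln3 was at 89.6, 74.6 and 53.7 CPM against 21.2, 27.8 and 23.6 CPM, 1.17 ± 0.33 (SE, adjusted p = 0.00957) on the log2 scale. Pfkfb4 was at 103, 142 and 91.1 CPM against 52.8, 43.8 and 34.8 CPM, 1.05 ± 0.23 (SE, adjusted p = 0.00128). For these 3 the lineages did not overlap.

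The 12 lower in neutrophils were led by Aldoc at -3.07 ± 0.57 (SE, adjusted p = 0.000294), Pfkp at -1.96 ± 0.36 (SE, adjusted p = 0.000223), Pfkl, the liver-type phosphofructokinase, at -1.94 ± 0.26 (SE, adjusted p = 3.33e-06) and Vegfa at -1.7 ± 0.39 (SE, adjusted p = 0.00155) on the log2 scale. Aldoc had 0, 1 and 2 UMIs in neutrophils, so its fold change rests on few counts. Pfkp was at 0, 27.1 and 31.9 CPM and Pfkl at 20.7, 27.1 and 14.6 CPM in neutrophils, against 78.3, 92.2 and 41.4 CPM of Pfkl in monocytes and macrophages. Vegfa was at 20.7, 6.78 and 22.8 CPM in neutrophils. The others were Hif1a at -1.52 ± 0.19 (SE, adjusted p = 1.57e-06), Hk3, Tpi1, Gpi1, Pgk1, P4ha1, Pgam1 and Ldha. Of these 12, 10 were called without the IgG library and 10 without the anti-CTLA-4 library, but 7 without the depletion library, where Pgk1, Ldha, P4ha1, Aldoc and Pgam1 missed the threshold. Neutrophils were shallow, with 54 cells in each of the IgG and anti-CTLA-4 libraries and 479 with depletion. Monocytes and macrophages held 371, 356 and 4119 CPM of neutrophil-list RNA and neutrophils 1848, 2427 and 1937 CPM of the monocyte list. Of the further pathway genes, 5 were called higher, led by Ier3, an early stress gene, at 1.48, the sugar epimerase Galm at 1.3 and Cxcr4 at 1.28, and 8 lower, led by Ldhb at -1.41, the oxygen sensor Egln1 at -1.32 and Pgm2 at -1.3.

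T cells exceeded B cells in genes of most roles. Of 30 genes, 16 were called higher and 1 lower, where 13% of all genes were called higher and 10.5% lower. The median log2 fold change was 0.75 against 0.04 over all genes. Egln3 was at 18, 9.54 and 6.1 CPM in T cells and at 4.51, 0 and 0 CPM in B cells, with 2, 0 and 0 UMIs there, and its fitted log2 fold change of 3.29 ± 0.84 (SE, adjusted p = 0.00544) depends on those few counts. The lactate exporter Slc16a3 was at 23.5, 20.2 and 17.6 CPM against 4.51, 1.56 and 4.17 CPM, 2.74 ± 0.56 (SE, adjusted p = 0.000736). Its values in B cells rest on few counts as well. Hk1 was at 44.4, 42.5 and 38.3 CPM against 20.3, 7.03 and 10.4 CPM, 1.83 ± 0.36 (SE, adjusted p = 0.000444). Ero1l, the oxidase that forms disulfide bonds in the endoplasmic reticulum, was at 59.9, 35.4 and 29.97 CPM against 6.76, 14.9 and 16.7 CPM, 1.43 ± 0.31 (SE, adjusted p = 0.00145). None of these 4 overlapped between T and B cells. Hif1a was called at 1.31 ± 0.18 (SE, adjusted p = 7.10e-06), and Ldha at 1.31 ± 0.18 (SE, adjusted p = 6.87e-06).

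The exception was Pfkfb4, at 1.47, 1.36 and 1.48 CPM in T cells and 11.3, 5.47 and 20.9 CPM in B cells, a log2 fold change of -2.9 ± 0.50 (SE, adjusted p = 0.000118). It had 4, 5 and 8 UMIs in T cells, so this fold change depends on few counts. The count of genes called higher was 9 without the IgG library and 9 without the anti-CTLA-4 library. B cells of the IgG library held 32100.2 CPM of hemoglobin and other erythrocyte-list RNA, against at most 8.34 CPM in the other tumor libraries, and its part in the result was not tested. Of the further pathway genes 5 were called higher and 3 lower. Galm was at 16.9, 15.3 and 15 CPM and Plod2 at 5.88, 8.45 and 5.36 CPM in T cells with 0 UMIs in B cells, and Egln1 differed by 1.5 ± 0.28 (SE, adjusted p = 0.000263). The 3 lower were Cxcr4 at -1.07, the oxygen sensor Egln2 at -0.98 and Ankrd37 at -0.92.

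Within the monocyte and macrophage lineage, Arg1 macrophages lay above C1q macrophages without Arg1 for 27 of 29 genes tested, but none was called by edgeR after adjustment. At an unadjusted p below 0.05 there were 14 genes, and DESeq2 called 0. The median log2 fold change was 0.36 against -0.01 over all genes, of which 0.231% were called higher and 0.13% lower. The fit has 6 sums and 2 residual degrees of freedom. The largest differences were Egln3 at 1.2 ± 0.29 (SE, adjusted p = 0.134), Ero1l at 1.17 ± 0.25 (SE, adjusted p = 0.0756), Ndrg1 at 1.07 ± 0.38 (SE, adjusted p = 0.517) and Ddit4, which restrains the growth kinase mTOR, at 1.06 ± 0.37 (SE, adjusted p = 0.51). Of the further pathway genes, Fam162a, a further hypoxia target, was called at 1.23 ± 0.22 (SE, adjusted p = 0.0279). Without the depletion library 5 of the 32 genes were called higher, but the share of all genes called in that smaller fit was not computed.

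Cycling T cells, defined by a UMI of at least 2 of 8 proliferation genes, were compared with T cells that had none. Of 26 genes tested, 5 were called higher and 1 lower, where 12.4% of all genes were called higher and 7.56% lower, so the share called higher was near the background. The median log2 fold change was 0.14 against -0.02. The 5 were Tpi1, Ldha and 3 enzymes of lower glycolysis. Cycling cells were deeper, with median depths of 17808, 13153 and 8784 UMIs against 5142, 5338 and 4009, and the part of depth in the result was not tested. Tpi1 was at 304, 381 and 117 CPM in cycling cells against 153, 157 and 103 CPM, 0.85 ± 0.17 (SE, adjusted p = 0.00295) on the log2 scale. Gapdh was at 1995, 1829.8 and 1589.9 CPM against 1145, 1171 and 1094 CPM, 0.65 ± 0.08 (SE, adjusted p = 1.97e-05). Ldha was at 733, 839 and 588 CPM against 467, 478 and 446 CPM, 0.61 ± 0.10 (SE, adjusted p = 0.000592). Every tumor library had the higher value in its cycling cells for these genes. Pgam1 differed by 0.53 ± 0.13 (SE, adjusted p = 0.00892) and Pkm, which makes pyruvate, by 0.51 ± 0.11 (SE, adjusted p = 0.0037). Pdk1 went the other way in edgeR, though DESeq2 did not call it, at 20.9, 13.3 and 12.0 CPM in cycling and 48.2, 36.0 and 29.9 CPM in non-cycling T cells, -1.32 ± 0.27 (SE, adjusted p = 0.00292). Of 27 further pathway genes, Pdk3 at 1.5, Ankrd37 at 0.91 and the cytokine Mif at 0.58 were higher, and Cxcr4 at -1.19 and the mitophagy receptor Bnip3l at -0.64 were lower.

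CD4 T cells lay above CD8 T cells of the same library for most of the genes that could be compared. In the IgG library 22 of the 32 genes had at least 30 UMIs, and 21 of these lay above in CD4 T cells with a median log2 ratio of 0.73, where 70.5% of all genes with that depth lay above with a median of 0.24. In the anti-CTLA-4 library it was 21 of 23 genes with a median of 0.60, against 62.2% of all genes and a median of 0.13. Hif1a was at 425 and 507 CPM in CD4 and 115 and 135 CPM in CD8 T cells, 3.7-fold (95% interval 2.91 to 4.76) higher with IgG and 3.75-fold (95% interval 3.18 to 4.43) higher with anti-CTLA-4. Ddit4 was 3.05-fold (95% interval 2.07 to 4.61) and 2.87-fold (95% interval 2.16 to 3.84) higher. T cells with a UMI of Foxp3, the regulatory T cell factor, and none of the CD8 genes overlap the CD4 cells in part. They held 374, 417 and 425 CPM of Hif1a, on 112, 89 and 67 cells. The 32 genes took 0.563, 0.605 and 0.667% of the UMIs of Foxp3 cells, 0.577 and 0.587% of CD4 cells (IgG, anti-CTLA-4) and 0.338, 0.389 and 0.377% of CD8 cells. Only 15 CD4 T cells were left in the depletion library, where no value is given.

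Tumor-bearing brain under IgG was compared with healthy brain lineage by lineage. The 2 libraries differ in tumor, antibody and sex, which cannot be told apart. In monocytes and macrophages 22 of 29 genes were past the size rule upward and 2 downward, where 12.2% of all genes were higher and 18% lower. The median log2 ratio was 1.31 against -0.16 over all genes. Vegfa had 0 UMIs in healthy brain and 57 CPM with IgG, at least 16.8-fold higher against a floor of 3 counts. Aldoc had 1 UMI in healthy brain and 19.1 CPM with IgG, a ratio of 16.9 whose interval runs from 2.90 to 679. Hif1a was at 34 CPM in healthy brain and 442 CPM with IgG, 13-fold higher (95% interval 9.07 to 19.4). Egln3 was at 2.26 and 21.2 CPM, 9.38-fold higher (95% interval 2.49 to 79.2), with 2 UMIs in healthy brain. Hif1a, Vegfa, Aldoc and Egln3 thus held the largest ratios, while Gapdh was 1.57-fold higher (95% interval 1.46 to 1.68).

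Ndrg1 at 40.8 and 17.3 CPM was 2.35-fold lower (95% interval 1.48 to 3.69), and Mxi1, a repressor that opposes MYC, was 1.7-fold lower (95% interval 1.18 to 2.42) at 56.6 and 33.3 CPM. Healthy monocytes and macrophages numbered 102, of which 15.7% held at least 2 proliferation genes against 0.311% with IgG, and they held 3951 CPM of neutrophil markers against 371 CPM. Restricted to Ly6c2 monocytes, 22 of 27 genes had a ratio above 1, whether or not past the size rule, with a median log2 ratio of 0.79 against -0.17 over all genes, and Hif1a was 13.2-fold and Slc2a1 5.07-fold higher. Of 32 further pathway genes 10 were higher and 5 lower. They were led by Ier3 at 3.4 against 155 CPM, Ankrd37 at 5.66 against 46.4 CPM and Mif at 61.1 against 460.3 CPM, healthy brain first. Lower were the enolase Eno3 at 143 against 37.9 CPM, G6pdx of the pentose phosphate route at 128 against 52.4 CPM and Bnip3l at 288 against 139 CPM.

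In T cells 19 of 26 genes were higher with IgG than in healthy brain and 1 lower, where 17.4% of all genes were higher and 5.22% lower. The median log2 ratio was 1.02 against 0.18. Hif1a was at 51 and 286 CPM, 5.61-fold higher (95% interval 4.17 to 7.7). Ndrg1 was at 2.17 and 10.6 CPM, 4.91-fold higher (95% interval 1.24 to 42.5), on 2 and 29 UMIs. Ero1l was 4.25-fold higher (95% interval 2.42 to 8.15) at 14.1 and 59.9 CPM, and Egln3 was 4.15-fold higher (95% interval 1.52 to 15.8) at 4.34 and 18 CPM. Hif1a and hypoxia targets led the list. Pdk1 was the gene lower in the tumor, at 73.7 and 39.7 CPM, 1.86-fold lower (95% interval 1.35 to 2.54). By subset, the median was 1.08 in CD4 T cells, against 0.33 over all genes, and 0.58 in CD8 T cells, against 0.0008. Hif1a was 9.11-fold higher in the CD4 and 2.13-fold higher in the CD8 T cells. CD4 cells were 141 and CD8 cells 81 with IgG, against 41 and 57 in healthy brain. Of 29 further pathway genes 8 were higher, led by Bhlhe40 at 5.42 against 84.1 CPM, Ier3 at 2.17 against 18 CPM and the HIF-2α subunit Epas1 at 2.17 against 14 CPM, and 0 were lower.

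Microglia gave a mixed result. Of 26 genes 9 were higher with IgG and 5 lower, where 8.16% of all genes were higher and 25.9% lower, with a median log2 ratio of 0.25 against -0.31. Median-of-ratios scaling gave 12 higher and 3 lower. Pfkp was at 1.19 and 14.1 CPM, 11.8-fold higher (95% interval 4.47 to 39.2), on 5 and 27 UMIs. Ero1l was 2.34-fold higher (95% interval 1.6 to 3.43) at 13.4 and 31.3 CPM and Pkm 2.16-fold higher (95% interval 1.93 to 2.43) at 139.7 and 302 CPM. Gpi1, which interconverts glucose and fructose phosphates, was 2.05-fold higher (95% interval 1.78 to 2.37) at 95 and 195 CPM. The others were Ldha, Tpi1, Pgk1, Aldoa and Gapdh, so 8 of the 9 were glycolytic enzymes or Ldha. Lower in tumor microglia were Slc2a3, 4.95-fold lower (95% interval 1.995 to 15.9) at 12.9 and 2.61 CPM, and Ddit4, 2.6-fold lower (95% interval 1.56 to 4.56) at 24.4 and 9.38 CPM. Hk1 was 2.25-fold lower (95% interval 1.16 to 4.77) at 12.9 and 5.73 CPM and Mxi1 1.93-fold lower (95% interval 1.47 to 2.58) at 64.5 and 33.4 CPM, and Pdk1 was 1.62-fold lower (95% interval 1.33 to 1.99). Hif1a, at 88.8 and 105 CPM, did not pass the rule.

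Microglia with IgG held 6145 CPM of microglia markers against 18537 CPM in healthy brain, and 7.11% of them held at least 2 proliferation genes against 0.126%. Their monocyte-list RNA was 334 against 62.8 CPM. Without the cycling cells the median was 0.31, against -0.33 over all genes. The part of the monocyte-list RNA in the result was not tested. Of 33 further genes 6 were higher, led by the transporter Slc2a6 at 1.67 against 27.6 CPM, Bhlhe40 at 0.955 against 14.6 CPM and the heme oxygenase Hmox1 at 23.6 against 92.8 CPM. Lower were 7, led by Galm at 13.1 against 5.21 CPM, the glycogen branching enzyme Gbe1 at 22.2 against 9.9 CPM and the pyruvate dehydrogenase subunit Pdha1 at 31.5 against 15.6 CPM.

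In neutrophils the set did not stand above the background. Of 21 genes 8 were higher with IgG and 3 lower, where 41.1% of all genes were higher and 9.77% lower, and the median log2 ratio was 0.52 against 0.68 over all genes. Single genes differed widely: Slc2a1 was 14-fold higher (95% interval 7.03 to 29.5) at 13.8 and 193 CPM and Hif1a 9.96-fold higher (95% interval 5.2 to 19.6) at 18 and 179 CPM. Tpi1 was 4.75-fold higher (95% interval 3.13 to 7.15) at 62.5 and 296 CPM and Hk2 2.97-fold higher (95% interval 2.05 to 4.24) at 107 and 317 CPM. The glucose transporter pair went in opposite directions, since Slc2a3 was 8.09-fold lower (95% interval 3.67 to 22.2) at 334 and 41.4 CPM. Hk3 was 2.74-fold lower (95% interval 1.22 to 7.63) at 113 and 41.4 CPM and Gpi1 2.65-fold lower (95% interval 1.8 to 4.06) at 493 and 186 CPM. Neutrophil marker RNA took 350448 CPM of healthy neutrophils and 48697 CPM with IgG, which moves every other gene's CPM. With marker genes left out of the total the median was -0.03, against 0.13 over all genes. Under median-of-ratios scaling the median of the set was -0.19, with 4 genes higher and 6 lower. Of 12 further genes 5 were higher, led by Bhlhe40 at 7.41 against 310.3 CPM, Mif at 20.1 against 724 CPM and Ier3 at 66.7 against 545 CPM, and G6pdx was lower at 114 against 6.89 CPM. In B cells, compared as a further lineage, 5 of 10 genes lay above and 5 below healthy brain. Their median log2 ratio was 0.04, against -0.30 over all genes.

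**Figure D4:**
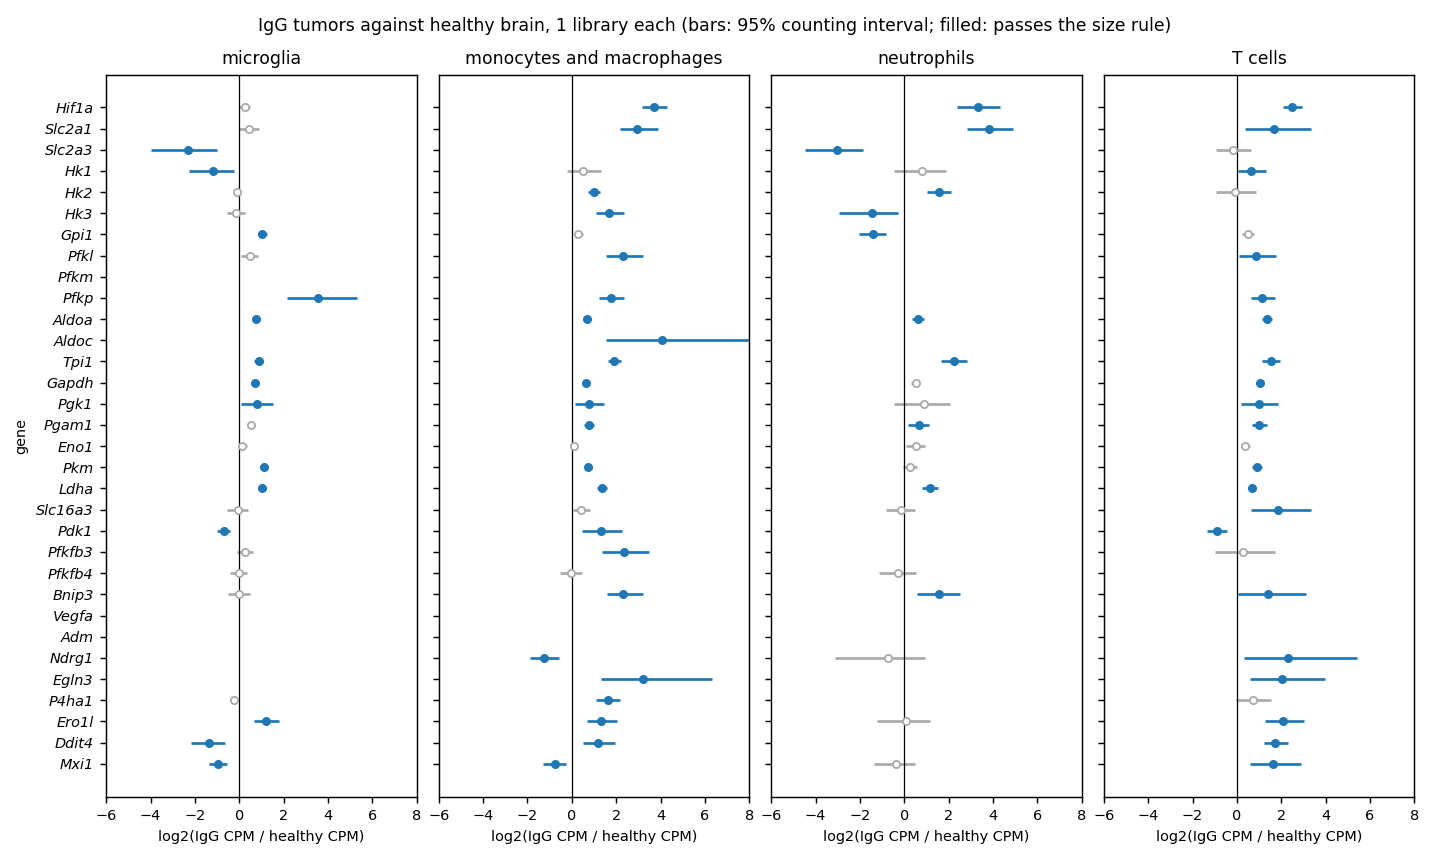
Log2 ratio of CPM with IgG over healthy brain (x axis) for each gene (y axis) in microglia, monocytes and macrophages, neutrophils and T cells, with bars for the exact 95% interval of counting error. Filled points are past the size rule; genes with 0 UMIs in a library, such as Vegfa in healthy monocytes and macrophages, are not drawn, and the bar of Aldoc runs past the axis. Hif1a is far to the right of 0 in 3 panels and near 0 in microglia.

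Few of these genes were past the size rule between anti-CTLA-4 and IgG. The IgG library here is the same one that was set against healthy brain above, so the comparisons share it. In monocytes and macrophages 1 of 29 genes was higher and 0 lower, where 2.85% of all genes were higher and 3.33% lower, with a median log2 ratio of 0.24 against -0.01. That gene was Pgk1, which yields the first ATP of the lower pathway, at 46 and 84.9 CPM, 1.84-fold higher (95% interval 1.5 to 2.27). In T cells 1 of 28 was higher and 2 lower, where 2.56% of all genes were higher and 3.15% lower, and the median was -0.01 against -0.02. Slc2a3 was 1.56-fold higher (95% interval 1.11 to 2.21) at 19.1 and 29.7 CPM. Egln3 was 1.89-fold lower (95% interval 1.2 to 3.000) at 18 and 9.54 CPM and Ero1l 1.69-fold lower (95% interval 1.33 to 2.14) at 59.9 and 35.4 CPM. NK-list RNA in T cells was 315 CPM with IgG and 1106 CPM with anti-CTLA-4, and its part in these differences was not tested. Hif1a was at 286 and 287 CPM in T cells and 442 and 436 CPM in monocytes and macrophages, where the ratio was 0.987 (95% interval 0.917 to 1.06).

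In microglia 2 of 24 genes were higher with anti-CTLA-4 and 2 lower, where 4.21% of all genes were higher and 3.65% lower, with a median of -0.11 against 0.03. Ddit4 was 2.92-fold higher (95% interval 1.61 to 5.48) at 9.38 and 27.4 CPM and Hk3 1.54-fold higher (95% interval 1.11 to 2.14) at 40.1 and 61.9 CPM. Ero1l was 1.66-fold lower (95% interval 1.02 to 2.79) at 31.3 and 18.8 CPM and Gapdh 1.51-fold lower (95% interval 1.39 to 1.63) at 1064 and 706 CPM. In neutrophils, with 54 cells on each side, 1 of 14 genes was higher and 0 lower, where 5.88% of all genes were higher and 6.36% lower, and the median was -0.05 against -0.08. It was Pgam1, the phosphoglycerate mutase, 1.58-fold higher (95% interval 1.08 to 2.34) at 317 and 502 CPM. Counting error at this depth leaves differences under 1.5-fold unresolved for many of the lower genes. For higher genes some smaller differences had intervals that left out 1. Aldoa, Tpi1, Pgam1, Eno1, Pkm and Ldha had intervals above 1 in monocytes and macrophages and below 1 in microglia. For Aldoa the ratios were 1.27 (95% interval 1.2 to 1.34) and 0.75 (95% interval 0.659 to 0.853). Ddit4 went the other way in both lineages.

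Among the further pathway genes, Nos2 in monocytes and macrophages had the largest ratio in this comparison, 8.34-fold higher (95% interval 4.38 to 17.8) with anti-CTLA-4 at 3.54 against 29.5 CPM. The lipid droplet gene Hilpda at 11.3 against 20.2 CPM and the glycogen synthase Gys1 at 9.91 against 17.2 CPM were higher there too, and Galm was lower at 9.56 against 5.17 CPM, out of 36. In T cells 0 of 32 were higher and 3 lower, Epas1 at 14 against 2.997 CPM, Ier3 at 18 against 4.9 CPM and Cxcr4 at 79.7 against 52 CPM. In microglia 0 of 28 were higher and 5 lower, led by Hmox1 at 92.8 against 30.5 CPM, Bhlhe40 at 14.6 against 6.27 CPM and Ier3 at 50.03 against 26.6 CPM. In neutrophils Bhlhe40 alone of 8 was lower, at 310.3 against 176 CPM.

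The addition of CD4 depletion to anti-CTLA-4 went with lower levels of many of these genes in monocytes and macrophages. Of 30 genes 0 were higher and 15 lower, where 8.51% of all genes were higher and 14.9% lower. The median log2 ratio was -0.56 against -0.07. Hk3 was at 99.1 and 24.8 CPM in the anti-CTLA-4 and depletion libraries, 3.99-fold lower (95% interval 3.35 to 4.76). Pgk1 was at 84.9 and 34.1 CPM, 2.49-fold lower (95% interval 2.12 to 2.93). The depletion value of both was also below that with IgG, which was 87.8 CPM for Hk3 and 46 CPM for Pgk1. Pfkl was 2.23-fold lower (95% interval 1.92 to 2.6) at 92.2 and 41.4 CPM and Ndrg1 2.15-fold lower (95% interval 1.61 to 2.88) at 25.3 and 11.8 CPM. The rest were Slc2a1, Pfkfb3, Slc16a3, Tpi1, Hk1, Pfkp, Bnip3, Hk2, Aldoa, Pdk1 and P4ha1. Gapdh and Ldha, at 2061 and 1939 and 614 and 528 CPM, were not past the rule.

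Monocytes and macrophages of the depletion library held 4119 CPM of neutrophil-list RNA against 356 CPM with anti-CTLA-4, with 10 and 9 of the 10 markers present, Ly6g being at 0 with anti-CTLA-4. With these markers left out of the total the median was also -0.56. In Arg1 macrophages only, 27 of 29 genes lay below the anti-CTLA-4 value with a median of -0.68 against -0.05 over all genes, and Hk3 was 4.55-fold and Pgk1 2.96-fold lower. In Ly6c2 monocytes only, 23 of 28 lay below, with a median of -0.42 against -0.03. Of 37 further pathway genes 4 were higher and 12 lower. Among the lower ones were Nos2 at 29.5 against 1.92 CPM and the lactate carrier Slc16a1 at 4.67 against 1.41 CPM. Ldhb at 30.5 against 55.5 CPM, Bpgm at 5.17 against 9.09 CPM and the mitochondrial pyruvate carrier Mpc1 at 159 against 271 CPM led those higher.

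Neutrophils went the same way. Of 24 genes 1 was higher and 8 lower, where 8.4% of all genes were higher and 10.4% lower, and the median was -0.56 against 0.05. Aldoa was 2.85-fold lower (95% interval 2.34 to 3.46) at 989.6 and 347 CPM and Bnip3, a receptor for the removal of mitochondria, 2.64-fold lower (95% interval 1.42 to 4.67) at 115 and 43.7 CPM. P4ha1 was 2.28-fold lower (95% interval 1.19 to 4.13) at 102 and 44.6 CPM and Eno1 1.89-fold lower (95% interval 1.48 to 2.4) at 596 and 315 CPM. The others were Tpi1, Pgam1, Pkm and Slc2a1. Pfkfb3, at 13.6 and 59.2 CPM, was 4.37-fold higher (95% interval 1.16 to 36.8) but had 2 UMIs with anti-CTLA-4 and 65 with depletion. Neutrophil marker RNA was 61449 CPM with anti-CTLA-4 and 89427 CPM with depletion. Of 19 further genes Egln1 at 6.78 against 41 CPM, on 1 and 45 UMIs, and Mpc1 at 102 against 287 CPM were higher, and Ankrd37 at 142 against 52.8 CPM, Fam162a at 67.8 against 26.4 CPM and Mif at 1051 against 519 CPM lower.

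In T cells fewer genes passed the rule. Of 27 genes 0 were higher and 6 lower, where 2.93% of all genes were higher and 7.85% lower, with a median of -0.31 against -0.09. Median-of-ratios scaling gave 1 higher and 5 lower. Pgk1 was 2.75-fold lower (95% interval 2.1 to 3.63) at 42.8 and 15.5 CPM and Pfkl 2.25-fold lower (95% interval 1.7 to 3.01) at 34.6 and 15.4 CPM. Tpi1 was 1.86-fold lower (95% interval 1.66 to 2.08) at 198 and 106 CPM and Hk2 1.83-fold lower (95% interval 1.28 to 2.63) at 19.6 and 10.7 CPM, and Bnip3 and Slc2a3 were the others. The T cells sampled differed in kind: 784 of its 1135 T cells were CD8 and 15 were CD4, against 165 and 178 of 551 with anti-CTLA-4. Among CD8 T cells only, 18 of 25 genes lay below with a median of -0.20, against -0.002 over all genes. Pgk1 was 2.36-fold and Tpi1 1.73-fold lower in them. Hif1a, lower over all T cells at 287 and 194 CPM, was 1.26-fold higher in the CD8 cells, and Ddit4 was 2.46-fold higher. Of 33 further genes 3 were higher, Epas1 at 2.997 against 6.66 CPM, Ier3 at 4.9 against 9.06 CPM and Gbe1 at 8.17 against 13.5 CPM. The 3 lower were Stc2 at 8.72 against 2.4 CPM, Ldhb at 22.3 against 12.2 CPM and Fam162a at 92.1 against 57.9 CPM.

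Microglia differed in both directions. Of 25 genes 7 were higher with depletion and 4 lower, where 9.43% of all genes were higher and 16.3% lower, and the median was 0.23 against -0.12. Gapdh was 1.97-fold higher (95% interval 1.84 to 2.12) at 706 and 1395 CPM and Eno1, the enolase, 1.95-fold higher (95% interval 1.63 to 2.34) at 117 and 229 CPM. Pgam1 was 1.74-fold higher (95% interval 1.47 to 2.08) at 128 and 224 CPM and Slc16a3 1.69-fold higher (95% interval 1.17 to 2.48) at 29 and 48.9 CPM. In IgG microglia Gapdh, Eno1, Pgam1 and Slc16a3 were at 1064, 176, 182 and 28.7 CPM. Ldha, Pkm and Mxi1 were the others, so lower enzymes and lactate genes made up 6 of the 7. Hk3 was 2.55-fold lower (95% interval 1.84 to 3.52) at 61.9 and 24.3 CPM, Hk2 1.72-fold lower (95% interval 1.54 to 1.91) and P4ha1 1.71-fold lower (95% interval 1.46 to 2.01). Pdk1 was 1.51-fold lower (95% interval 1.15 to 1.96) at 71.3 and 47.3 CPM. The 3 genes called higher in microglia than in monocytes and macrophages, Hk2, P4ha1 and Pdk1, were thus all lower. They were lower in monocytes and macrophages as well, at ratios of 0.593, 0.656 and 0.632, against 0.582, 0.584 and 0.664 in microglia.

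In the depletion library 16.3% of microglia held at least 2 proliferation genes, against 2.97% with anti-CTLA-4, monocyte-list RNA in microglia was 846 against 215 CPM, and microglia markers were 5240.0 against 8587 CPM. Without the cycling cells the median was 0.33, against -0.12 over all genes. Gapdh was then 1.86-fold and Eno1 1.88-fold higher, and Hk3 was 2.66-fold lower. The part of the monocyte-list RNA was not tested. Of 30 further genes 8 were higher, led by Ier3 at 26.6 against 119 CPM, Bhlhe40 at 6.27 against 25.5 CPM and Hmox1 at 30.5 against 103 CPM. Lower were the monocarboxylate carrier Slc16a7 at 11 against 4.86 CPM, G6pdx at 32.9 against 18.5 CPM and Vhl, which targets HIF-1α for destruction, at 50.1 against 31.6 CPM.

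**Figure D5:**
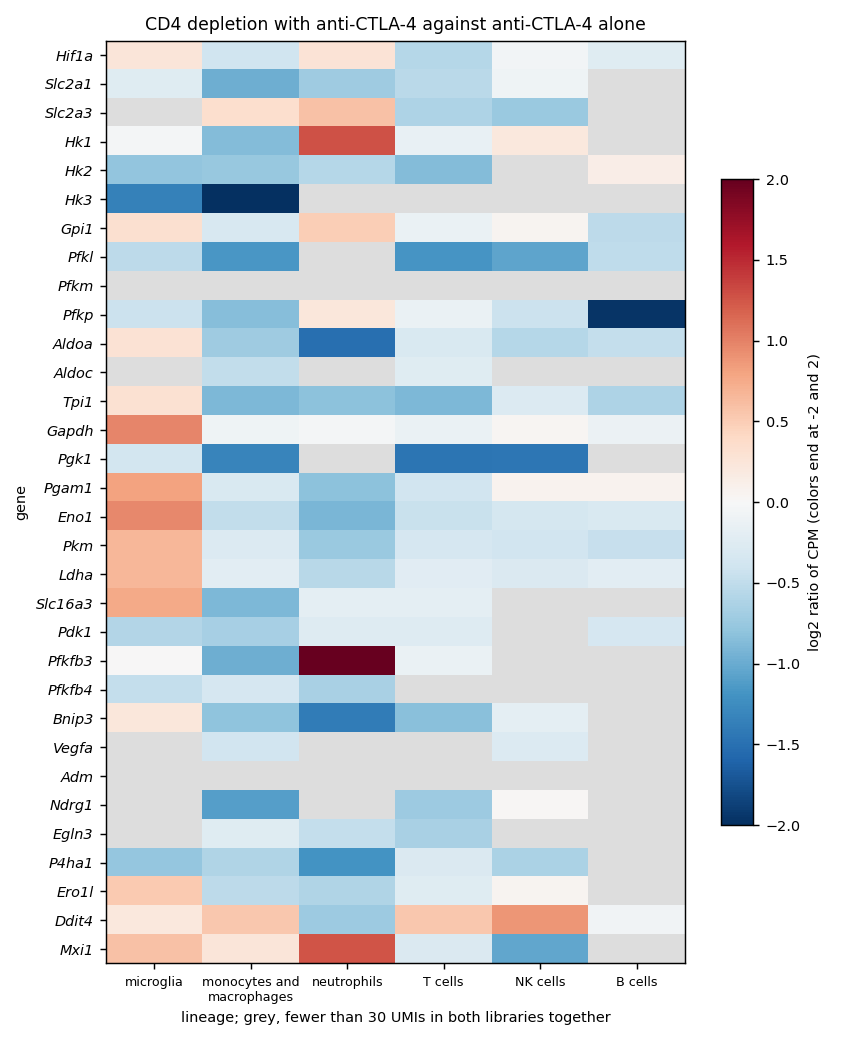
Log2 ratio of CPM with depletion over anti-CTLA-4 for each gene (rows) in 6 lineages (columns), with colors ending at -2 and 2 and grey where both libraries together had fewer than 30 UMIs. The column of monocytes and macrophages is on the lower side for nearly all rows, and the rows of Gapdh and Eno1 are higher in microglia.

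Read gene by gene over the lineages, 24 genes had at least 30 UMIs in 4 or more lineages for depletion against anti-CTLA-4. Of these, 5 lay below the anti-CTLA-4 value in every such lineage, namely Slc2a1, Pfkl, Pgk1, P4ha1 and Pdk1, and 0 lay above in every one, where 11.3% of all genes lay below and 6.35% above in every one. Each of the 5 had a 95% interval below 1 in 2 or 3 of its 4 or 5 lineages. NK and B cells, compared as further lineages, had 15 of 22 and 12 of 14 genes below the anti-CTLA-4 value, with medians of -0.27 and -0.32 against -0.06 and 0.07 over all genes. For anti-CTLA-4 against IgG 0 of 21 genes lay below and 1 above in every lineage, against 5.16% and 4.36% of all genes. That gene, Bnip3, had an interval above 1 in 1 of 5 lineages. For IgG against healthy brain 0 of 18 lay below and 7 above in every lineage, against 8.54% and 6.65% of all genes. The 7 were Slc2a1, Pfkp, Aldoa, Gapdh, Pgk1, Ero1l and Hif1a, each with an interval above 1 in at least 3 of its 4 or 5 lineages. The lineages of a comparison come from the same pair of libraries and so are not independent samples.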

How the data were processed

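The 4 libraries (10x Genomics 3′ kit) hold UMI counts per gene and cell barcode, deposited by the authors as raw counts. Per the file headers Cell Ranger 3.1.0 made them, and the submitters' processing notes name mm10; further settings are not given in the sources used here. Cells below 200 genes or above 10% mitochondrial UMIs were dropped, and the others were assigned to lineages by marker UMIs; 9 of 12 listed T cell markers were in the table. Counts were summed per library and lineage, and shown as CPM. Lineages were tested with edgeR 4.0.16 (TMM, filterByExpr, quasi-likelihood test, library as block; DESeq2 1.42.0 as an alternative), with Benjamini-Hochberg adjustment over all genes; the test was checked on simulated counts. Doublets were left to the lead required between lineages, with Scrublet as an alternative. Poisson and conditional binomial intervals at 95% came from scipy 1.17.1. The 32 genes and the lists were chosen with earlier results of these data known. Values are given for the 4 genes with the largest called difference in each direction of a comparison, for the gene of each role with the most UMIs, and for the 3 largest of the further pathway genes, of which 1 is not reported here.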

Additional observations from a re-analysis of the deposited data

How the results depend on the processing

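No paired analysis was possible because each condition was 1 library; the lineage tests had the library as a block. Of the genes called between lineages, 24 of 26, 10 of 15, 7 of 17 and 3 of 6 (monocytes and macrophages against microglia, neutrophils against monocytes and macrophages, T against B cells, cycling against other T cells) stayed called under every alternative, and none reversed. Without a replicate block 1 gene was called lower in monocytes and macrophages than in microglia, as with no filter on low counts (1), and 1 to 3 when a library was left out. T against B cells gave 2 lower calls with no filter and 9 to 16 higher calls with a library left out. For Arg1 against C1q macrophages the higher calls were 9 with no filter, 3 with at least 2 markers and a lead of 1, 1 after Scrublet, and 0 to 5 with a library left out. The share of all genes called in these alternative fits was not computed, so the counts have no background. DESeq2 called 0 genes lower in cycling T cells. The cause of these changes was not tested, beyond the fewer samples in the fits with a library left out.

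Median-of-ratios scaling shifted IgG against healthy brain by 0.31 (microglia), 0.17 (monocytes and macrophages), -0.70 (neutrophils) and -0.18 (T cells) on the log2 scale, and depletion in microglia by 0.12. With it the median of the set was 0.57 in microglia and -0.19 in neutrophils (IgG against healthy brain), and -0.22 in T cells (depletion). Added after seeing the data, the median was -0.033 in neutrophils without their marker genes in the total, and 0.58 (IgG against healthy brain) and -0.20 (depletion) in CD8 T cells only. Genes under 30 UMIs in a pair of libraries were not compared.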
